A study of Homo sapiens with 14 samples.

Results

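The glycolysis and hypoxia response genes are a set of 39 genes that encode the glucose and lactate transporters, the enzymes of glycolysis, regulators of glycolytic flux, regulators of the hypoxia-inducible factor (HIF), and genes that HIF is known to induce. The rule names the members by gene symbol and uses no measured value, but they were picked with earlier results of these data known. All 39 were found by gene symbol in the expression table, and 38 of them were among the 13137 named loci tested, those with 1 or more FPKM (fragments per kilobase of transcript and per fixed number of mapped fragments, a level corrected for length and library size) in at least 2 of the 14 libraries. The exception was SLC2A3, a high-affinity glucose transporter, which had 1.09 FPKM in 1 Puro library and at most 0.224 FPKM in every other library. EGLN3, at up to 1.77 FPKM, was the lowest member that was tested.

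RNA sequencing was done on MCF-10A cells, a non-tumorigenic human mammary epithelial line, harvested 2 days after infection with retroviruses, in 7 groups of 2 libraries. Of these groups, 4 carried a form of MRTFB (gene symbol MKL2 in the table), and all 4 forms lacked G-actin binding (dN). They were a form that also lacked both SRF and YAP binding (MRTFB dN Y305A/dPY, here Y305A/dPY cells), a form without SRF binding (MRTFB dN Y305A, Y305A cells), a form without YAP binding (MRTFB dN dPY, dPY cells), and the form that kept both (MRTFB dN, dN cells). The fifth group carried a hyperactive YAP (YAP 5SA cells), and the other two carried an empty pMSCV Puro vector (Puro cells) or an empty pMSCV Hygro vector (Hygro cells). The labels do not give the vector of each construct. Puro cells served as control of the MRTFB forms and Hygro cells as control of YAP 5SA cells, and each result was also set against the other vector. No label says that the 2 libraries of a group came from separate cultures, so the p-values measure only the spread between these libraries, which may be technical. All constructs were overexpressed, and loss of endogenous MRTFB or YAP was not measured.

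MRTFB is a coactivator of serum response factor (SRF) that monomeric G-actin holds away from the nucleus. A form that cannot bind G-actin is active without a signal. YAP is the coactivator of the TEAD factors. HIF is a dimer whose alpha subunit, HIF1A, is hydroxylated by the EGLN enzymes when oxygen is present and is then degraded. When oxygen is low it accumulates, binds hypoxia response elements with the core ACGTG or GCGTG, and induces glycolytic enzymes, angiogenic factors, collagen-modifying enzymes and mitophagy receptors. HIF is regulated mainly at the level of the protein, which RNA libraries do not measure.

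The 250 bases upstream of the annotated start (RefSeq, GRCh38.p14, first listed start of each gene) were available for 35 of the 39 members. The ACGTG core lay on either strand in 16 of these 35 promoters (45.7%), against 18.7% of all 27305 genes in the promoter table, and the GCGTG core in 14 of 35 (40%), against 31.9%. The SRF motif known as the CArG box, searched in its strict form, was found in 0 of 35 and in 1.14% of all genes. That share is too low for 35 promoters to show a difference. All these counts are matches of letters in this window and not measured binding sites. PLOD2, BNIP3 and KDM3A passed as lower without SRF binding in both pairs of MRTFB forms. PGK1, a glycolytic member, passed in neither pair. Its levels were still lower, at 306 and 236 FPKM in Y305A cells against 574 and 486 in dN cells. The promoters of these 4 members carry the comparison. Each is given 5′ to 3′ on the strand of the gene and ends at the base before the start, with each ACGTG and GCGTG core, or its reverse complement, in capitals. The stretches are chr3:146161185-146161434 (minus strand), chr10:131981924-131982173 (minus strand), chr2:86441121-86441370 (plus strand) and chrX:78103998-78104247 (plus strand).
PLOD2: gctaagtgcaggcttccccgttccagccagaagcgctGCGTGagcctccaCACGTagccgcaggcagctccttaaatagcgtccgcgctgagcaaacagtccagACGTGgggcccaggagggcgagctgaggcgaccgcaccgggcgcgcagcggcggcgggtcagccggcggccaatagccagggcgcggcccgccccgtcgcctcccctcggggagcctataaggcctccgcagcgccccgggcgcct
BNIP3: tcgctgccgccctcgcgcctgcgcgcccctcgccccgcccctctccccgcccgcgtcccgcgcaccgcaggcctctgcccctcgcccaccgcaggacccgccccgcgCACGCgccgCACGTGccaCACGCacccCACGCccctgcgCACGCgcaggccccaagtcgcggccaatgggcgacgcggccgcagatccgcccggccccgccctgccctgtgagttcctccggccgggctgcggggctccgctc
KDM3A: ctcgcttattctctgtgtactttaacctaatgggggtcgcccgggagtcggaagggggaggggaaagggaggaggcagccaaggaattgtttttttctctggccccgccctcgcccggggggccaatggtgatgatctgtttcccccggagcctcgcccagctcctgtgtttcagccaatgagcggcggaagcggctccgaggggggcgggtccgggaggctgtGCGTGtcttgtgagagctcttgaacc
PGK1: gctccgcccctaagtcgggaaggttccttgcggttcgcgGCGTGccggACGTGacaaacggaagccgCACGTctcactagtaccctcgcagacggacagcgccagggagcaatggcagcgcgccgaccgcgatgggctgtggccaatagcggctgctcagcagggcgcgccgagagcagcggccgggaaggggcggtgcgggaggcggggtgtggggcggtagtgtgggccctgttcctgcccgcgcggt
PLOD2 and PGK1 held both cores within 250 bases, as did BNIP3, in which 1 ACGTG and its reverse complement overlap in a palindrome (CACGTG), while KDM3A held a single GCGTG core. The cores were not limited to the members that passed as lower without SRF binding in both pairs. Of those with a promoter in the table, 5 of 12 held ACGTG and 7 of 12 held GCGTG. Among the other members it was 11 of 23 and 7 of 23.

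The introduced genes were at high levels in the groups labelled with them. MKL2 had 610.1 and 343 FPKM in Y305A/dPY cells, 404 and 294 in Y305A cells, 286 and 171 in dPY cells, and 299.5 and 165 in dN cells. MKL2 was at 3.22 and 3.48 FPKM in YAP 5SA cells, 6.6 and 3.66 in Puro cells, and 4.57 and 3.06 in Hygro cells. YAP1 had 625 and 529 FPKM in YAP 5SA cells and 18.3 to 50.9 FPKM elsewhere. ACTA2, an actin gene known as an SRF target, was at 16815 to 52274 FPKM in dPY and dN cells and at 4.26 to 17.7 FPKM in every other library. Of 10 markers of mammary epithelium, 9 or 10 were at 1 FPKM or more in every library. Their summed level moved with the groups, at 7016 to 20421 FPKM in Y305A/dPY and Y305A cells, 25159 to 54365 in dPY and dN cells, 5633 to 8139 in YAP 5SA cells, 2691 to 3794 in Puro cells, and 14959 to 26372 in Hygro cells. In Puro cells 6 of the 10 were lower and 1 was higher than in Hygro cells. In contrast, the leukocyte antigen gene PTPRC was at 0.0316 FPKM or less in all of them. Of the other leukocyte markers, CD3E and CD79A were at 0.153 FPKM or less and LYZ at 2.64 FPKM or less. CD14 ran from 1.31 to 149 FPKM and moved with the groups, as given below with ANGPTL4, and CD68 lies in a merged locus. Summed levels of the 6 endothelial and 7 fibroblast markers stayed at 0.168 to 14.9 FPKM and 0.828 to 16.5 FPKM. Single markers of other cells moved with the groups. CDH5 (endothelium) had 4.51 to 14.6 FPKM in Y305A/dPY and Y305A cells and at most 2.78 FPKM elsewhere. CALB2 (a renal packaging line) had 8.22 to 13 FPKM in dPY and dN cells and at most 0.175 FPKM elsewhere. The other listed markers of that line, NEFL, NEFM, PAX2, LHX1 and WT1, were at 0.561 FPKM or less in every library measured. The part of all these markers in the results was not tested. Absolute depth is unknown. Relative depth, set to 1 in Hygro replicate 1, ran from 0.511 to 1.39 in 13 libraries and was 0.314 in Puro replicate 1. That library stood apart, with 4780 unnamed loci at 1 FPKM or more against 211 to 669 in the others. Unnamed loci held 58.77% of its summed FPKM, against 9.994% to 38.57% in the others, which leaves a smaller share to named loci. The part of that share in the comparisons with Puro cells was not tested. In dPY replicate 1 the table is empty for much of chromosome 7 and all of chromosomes 8, 9 and X, which were treated as missing, so the dPY values of PGK1 (X), CA9 (9), BNIP3L (8) and NDRG1 (8) rest on 1 library.

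**Figure D1:**
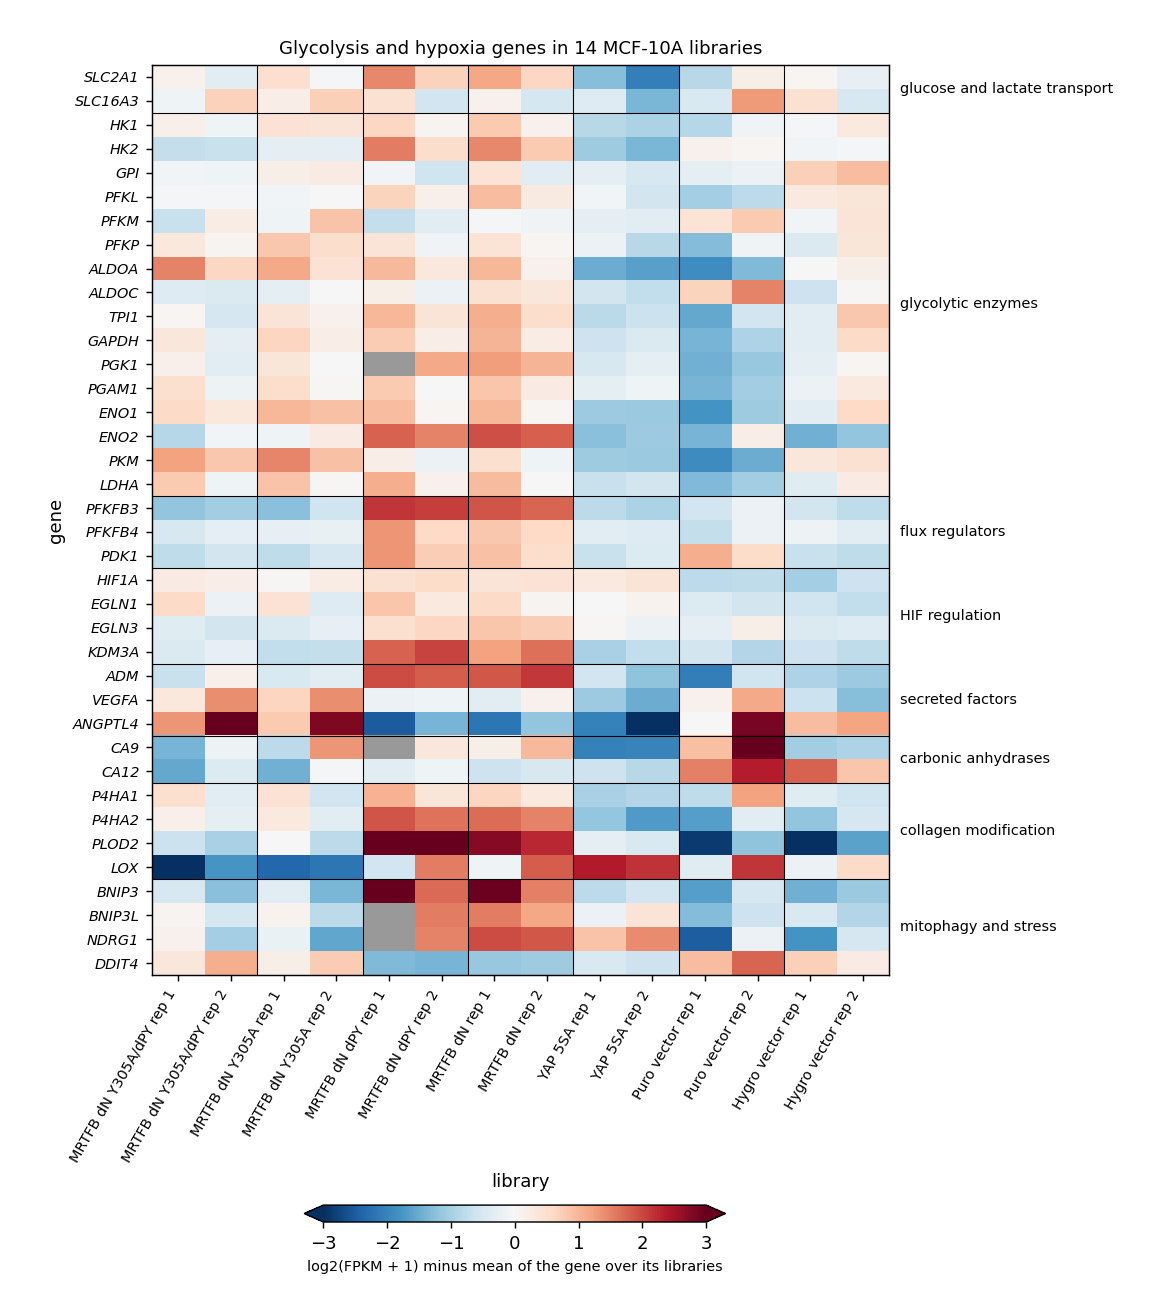
Levels of the 38 tested members by library. Each row is a gene, grouped by role; each column is a library (2 replicates a group); color is log2(FPKM + 1) minus the mean of that gene over its libraries, and gray marks the 4 members missing in MRTFB dN dPY replicate 1. PFKFB3, KDM3A, ADM, P4HA2, PLOD2 and BNIP3 are red in the 4 libraries of MRTFB dN dPY and MRTFB dN, while most glycolytic enzymes are blue in the 2 Puro and 2 YAP 5SA libraries.

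Part of the set differed with SRF binding. In Y305A cells 14 of the 38 tested members were lower than in dN cells and 2 were higher, at adjusted p under 0.05. Of all 13137 loci, 10.6% were lower and 6.12% higher. The median log2 fold change was -0.53 over the members and 0.03 over all loci. The same loss in forms without YAP binding, Y305A/dPY cells against dPY cells, gave 13 lower and 2 higher members, against 10.7% and 6.76% of all loci, with medians of -0.68 and 0.04. These comparisons share no library, but both come from 1 fit that uses a common spread for each gene. The overlap of their calls over all loci was not counted. The 13 members lower in the second were all among the 14 lower in the first (HK2, ENO2, PFKFB3, PFKFB4, PDK1, EGLN3, KDM3A, ADM, P4HA2, PLOD2, LOX, BNIP3 and BNIP3L). NDRG1 passed only in the first, and ANGPTL4 and DDIT4 were higher in both. EGLN3 reached 1 FPKM in the dPY and dN libraries alone, so its filter pass fixed the direction of its calls. Without it, 13 of 37 members were lower in Y305A than in dN cells and 12 of 37 in Y305A/dPY than in dPY cells. The interaction, which asks whether the loss differed between forms with and without YAP binding, called 0 members with limma and 0 at an unadjusted p under 0.05. Of all 13137 loci it called 2 higher and 1 lower. With 2 libraries a group, its 0 calls do not show that the loss was equal in both. In bulk RNA, fewer cells of a type and less RNA per cell cannot be told apart. MKL2 itself averaged higher in the forms without SRF binding than in those with it, and the part of that difference was not tested. Fewer members passed in each refit of the first comparison that left out 1 library. Its member medians were -0.34 without dN replicate 1, -0.55 without Y305A replicate 2, -0.66 without dN replicate 2 and -0.64 without Y305A replicate 1. Over all loci the medians of these refits were 0.01 to 0.03. Without dPY replicate 1 fewer members passed in the second comparison too, with medians of -0.48 over the members and 0.04 over all loci.

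**Figure D2:**
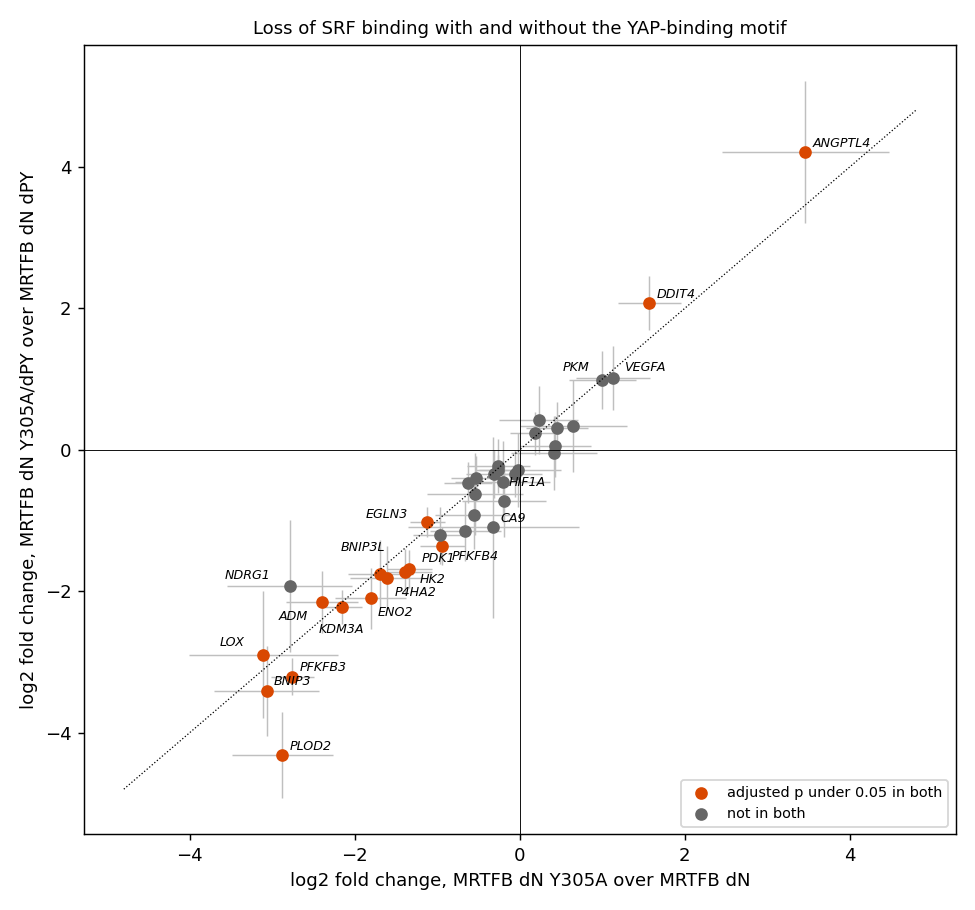
Loss of SRF binding in the 2 backgrounds. The x axis is the log2 fold change of MRTFB dN Y305A over MRTFB dN, the y axis that of MRTFB dN Y305A/dPY over MRTFB dN dPY, bars are standard errors and the dotted line is equality. The 13 members below 0 and the 2 above 0 that passed in both are in orange; PLOD2 lies lowest on the y axis, at -4.32, and ANGPTL4 highest, at 4.21.

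Relative to empty vectors, dN cells had higher levels of 24 members and lower levels of 3 against Puro cells, where 21.8% of all loci were higher and 15.0% lower. The median log2 fold change was 1.20 over the members and 0.09 over all loci. The dPY cells had 24 higher and 5 lower (21.0% and 14.8% of all loci), with medians of 1.35 and 0.07. Without SRF binding the counts were 6 higher and 5 lower in Y305A/dPY cells (15.0% and 11.4% of all loci), with medians of 0.44 and 0.08. Y305A cells had 8 higher and 4 lower (14.2% and 11.0%), with medians of 0.47 and 0.10. These comparisons share the Puro libraries. The choice of vector changed the counts. Against Hygro cells, dN cells had 15 higher and 2 lower members (12.0% and 7.09% of all loci), dPY cells 14 and 2 (12.3% and 8.25%), Y305A cells 1 and 0 (1.33% and 1.28%), and Y305A/dPY cells 1 and 1 (1.29% and 1.38%). Without Puro replicate 1, fewer members passed against Puro cells in all 4 MRTFB groups. Among the members, lower calls then outnumbered higher ones in Y305A and Y305A/dPY cells, while over all loci higher calls still outnumbered lower ones. The member medians were 1.12 in dN, 1.17 in dPY, 0.11 in Y305A and -0.07 in Y305A/dPY cells. Over all loci they were 0.09, 0.08, 0.08 and 0.06.

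The members that were higher against both vectors were 14 in dN cells: HK2, PGK1, ENO2, PFKFB3, PFKFB4, HIF1A, EGLN3, KDM3A, ADM, P4HA2, PLOD2, BNIP3, BNIP3L and NDRG1. In dPY cells there were 13, the same without PGK1 and NDRG1 and with EGLN1. EGLN3 is among them through the filter. In contrast, 10 members were higher in dN cells against Puro cells only (SLC2A1, HK1, PFKL, ALDOA, TPI1, GAPDH, PGAM1, ENO1, PKM and LDHA). Calls against both vectors, or against Puro cells only, were not counted over all loci. Both tests of a form also use the same libraries of that form. Leaving out dN replicate 1 reduced the calls in dN cells against Puro cells, with medians of 1.10 over the members and 0.05 over all loci. Leaving out dPY replicate 1 did so for dPY cells, with medians of 1.06 and 0.05. In all 4 of the refits that each leave out 1 library, 13 of the 27 calls in dN cells remained, among them ADM, BNIP3, ENO2, KDM3A, P4HA2, PFKFB3 and PLOD2. In Y305A cells against Puro cells, fewer members and fewer of all loci passed without Y305A replicate 1. The medians were 0.39 over the members and 0.09 over all loci. The same held in Y305A/dPY cells without Y305A/dPY replicate 1, with medians of 0.39 and 0.05.

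**Figure D3:**
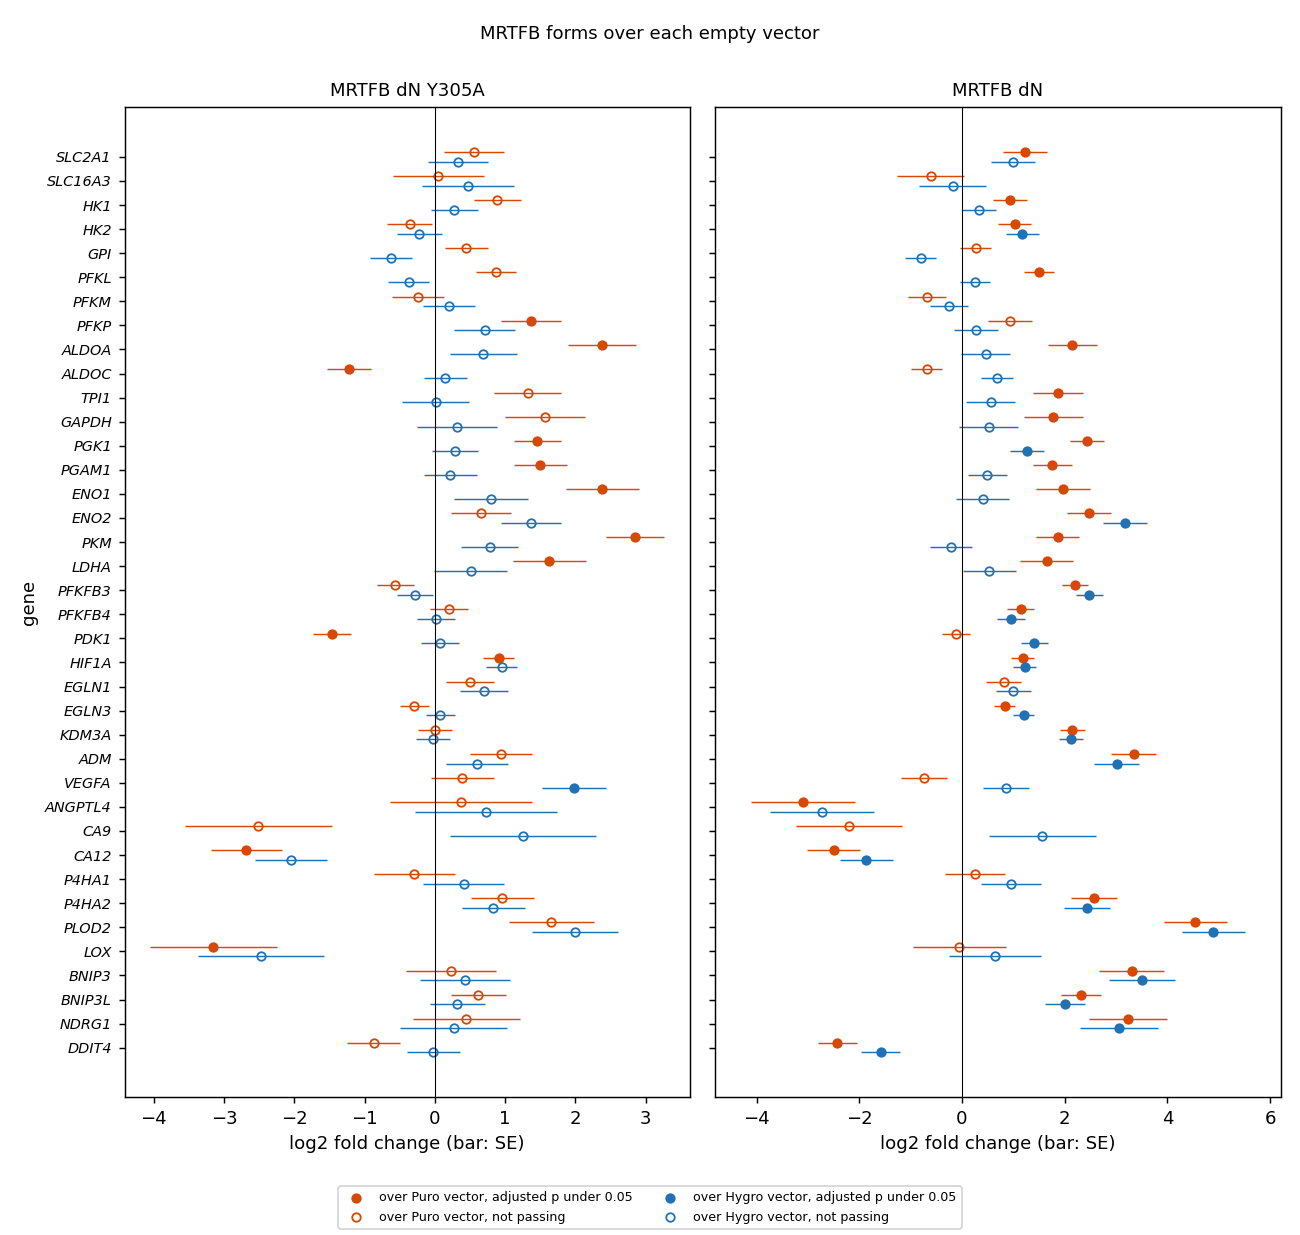
Members in 2 MRTFB forms over each empty vector. Points are log2 fold changes over Puro (orange) and Hygro (blue) vector, bars are standard errors, and filled points passed an adjusted p under 0.05. For MRTFB dN, ADM, PLOD2 and BNIP3 are filled in both colors, while ALDOA, ENO1 and PKM are filled in orange alone; for MRTFB dN Y305A no member is filled in both.

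The YAP-binding deletion changed no member beyond the test. In dPY cells against dN cells, limma called 0 members higher and 0 lower (0.145% and 0.0913% of all loci), and 0 had an unadjusted p under 0.05. Its log2 differences ran from -0.44 for PFKM to 1.02 for PLOD2. In Y305A/dPY cells against Y305A cells it called 0 and 0 (0.00% and 0.0152% of all loci), with 0 at an unadjusted p under 0.05. Here the differences ran from -1.03 for CA9 to 0.48 for ANGPTL4. The half-width of the confidence interval of a member's difference was 0.96 at the median in the first comparison and 0.95 in the second, and reached 2.85 and 2.33. The interval is not adjusted over all loci, while the calls were. Differences of that size, and larger ones, could therefore go uncalled.

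In YAP 5SA cells against Hygro cells, 1 member was higher, HIF1A, and 5 were lower, SLC2A1, GPI, PKM, ANGPTL4 and CA12. Of all loci, 3.93% were higher and 4.34% lower. The median log2 fold change was -0.44 over the members and -0.01 over all loci. Against Puro cells 1 was higher and 8 were lower (5.57% and 4.26% of all loci), and HIF1A (higher), ANGPTL4 and CA12 (lower) passed against both vectors. Leaving out any 1 library of the comparison with Hygro cells cut the calls, to 0 without either YAP 5SA replicate or Hygro replicate 1 and to 2 higher and 1 lower without Hygro replicate 2. The empty vectors also differed. In Puro cells 4 members were higher than in Hygro cells (ALDOC, PDK1, VEGFA and CA9) and 6 lower (GPI, PFKL, ALDOA, PGK1, PGAM1 and PKM), against 5.69% and 8.55% of all loci. Fewer members and fewer of all loci passed without Puro replicate 1, Hygro replicate 1 or Hygro replicate 2. The medians over the members and over all loci were 0.34 and -0.06 without Puro replicate 1. They were -0.09 and -0.08 without Hygro replicate 1, and 0.14 and -0.02 without Hygro replicate 2. Among the members, higher calls outnumbered lower ones without Puro replicate 1 and without Hygro replicate 2, but not over all loci.

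Among the transporters, SLC2A1, the main basal glucose transporter, had 73.6 and 53.2 FPKM in Y305A/dPY cells, 95.7 and 64.9 in Y305A cells, 182 and 108 in dPY cells, and 150.0 and 104 in dN cells. SLC2A1 was at 26.8 and 15.3 FPKM in YAP 5SA cells, 37 and 75.9 in Puro cells, and 69.3 and 56.3 in Hygro cells. Both libraries of dPY and of dN cells were above every vector and YAP 5SA library. SLC2A1 was higher in dN and dPY cells than in Puro cells (log2 fold changes 1.22 ± 0.43, adjusted p = 0.046, and 1.39 ± 0.43, adjusted p = 0.029) but did not pass against Hygro cells, at 0.99 ± 0.43, adjusted p = 0.14 in dN cells. SLC2A1 was lower in YAP 5SA cells than in Hygro cells, by 2.98-fold (-1.57 ± 0.43, adjusted p = 0.048). SLC16A3, the lactate exporter, ranged from 152 to 967 FPKM over all libraries and passed in none of the 10 comparisons.

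Of the 16 glycolytic enzymes, 5 were higher in Y305A/dPY cells than in Puro cells, 7 in Y305A cells, 11 in dPY cells and 12 in dN cells, with 1, 1, 2 and 0 lower. Of all loci, 15.0%, 14.2%, 21.0% and 21.8% were higher and 11.4%, 11.0%, 14.8% and 15.0% lower. Against Hygro cells 3 were higher in dN cells (HK2, PGK1 and ENO2), 2 in dPY cells, and 0 in Y305A and Y305A/dPY cells, and GPI was lower in dPY cells. Of all loci, 12.0%, 12.3%, 1.33% and 1.29% were higher and 7.09%, 8.25%, 1.28% and 1.38% lower. Puro cells themselves had 6 of the 16 lower and 1 higher than Hygro cells, against 8.55% and 5.69% of all loci. Without Puro replicate 1, dN and dPY cells each had 6 enzymes higher, and Y305A and Y305A/dPY cells each had 2, ALDOA and PKM. Without dPY replicate 1 the number higher in dPY cells was 2, PGK1 and ENO2, and without dN replicate 1 the number in dN cells was 3, PFKL, PGK1 and ENO2. Within groups most enzymes differed between the replicates in the same direction. Replicate 1 was higher for 13 of 16 enzymes in Y305A/dPY cells, 11 of 16 in Y305A cells, 14 of the 15 measured in dPY cells and all 16 in dN cells. The count was 10 of 16 in YAP 5SA cells, 1 of 16 in Puro cells and 0 of 16 in Hygro cells. Such counts were not made over all loci, so they are not shown to be particular to the enzymes. MKL2 was also higher in replicate 1 of each MRTFB group. Its part in the enzyme levels was not tested. Several of these genes, GAPDH, PGAM1, ENO1, LDHA, TPI1 and PGK1 among them, have near-identical processed pseudogenes, and how reads shared with them were assigned is not given in the sources used here.

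The hexokinases, which phosphorylate glucose on entry, behaved differently from each other. HK1, the basal form, had 72.8 and 59.9 FPKM in Y305A/dPY cells, 88.4 and 85.5 in Y305A cells, 101 and 69.7 in dPY cells, and 114 and 71.8 in dN cells. HK1 was at 36 and 33.4 FPKM in YAP 5SA cells, 35.8 and 60.6 in Puro cells, and 64.1 and 80.0 in Hygro cells. HK1 was higher in dN cells than in Puro cells (0.94 ± 0.33, adjusted p = 0.046) but not than in Hygro cells (0.33 ± 0.33, adjusted p = 0.55). HK2, the inducible form, had 4.16 and 4.3 FPKM in Y305A/dPY cells, 6.03 and 5.87 in Y305A cells, 23.5 and 11.2 in dPY cells, and 21.8 and 13.5 in dN cells. HK2 was at 3.05 and 2.26 FPKM in YAP 5SA cells, 8.18 and 7.7 in Puro cells, and 6.9 and 7.24 in Hygro cells. Its dPY and dN libraries were all above the rest, and it was lower in Y305A cells than in dN cells (-1.39 ± 0.32, adjusted p = 0.013) and in Y305A/dPY cells than in dPY cells (-1.73 ± 0.32, adjusted p = 0.0037), 2.62-fold and 3.31-fold. Against Hygro cells it was higher in dN (1.17 ± 0.32, adjusted p = 0.027) and dPY cells (1.10 ± 0.32, adjusted p = 0.034).

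GPI, which isomerizes glucose phosphate, had 68 and 65 FPKM in Y305A/dPY cells, 81.7 and 85 in Y305A cells, 67.9 and 46.7 in dPY cells, and 95.9 and 56.4 in dN cells. GPI was at 58.1 and 50.7 FPKM in YAP 5SA cells, 58.6 and 63.1 in Puro cells, and 119 and 138 in Hygro cells. The Hygro libraries were above all others, and GPI was lower in YAP 5SA cells (-1.23 ± 0.30, adjusted p = 0.031) and in Puro cells (-1.07 ± 0.30, adjusted p = 0.04) than in Hygro cells. It also passed as lower in dPY than in Hygro cells. The phosphofructokinases catalyze the committed step. PFKL, the liver-type subunit, had 33 and 33 FPKM in Y305A/dPY cells, 32.7 and 34.2 in Y305A cells, 55.3 and 38.6 in dPY cells, and 66.1 and 41.6 in dN cells. PFKL was at 32.7 and 23.1 FPKM in YAP 5SA cells, 16.4 and 19.6 in Puro cells, and 42.2 and 45 in Hygro cells. It was higher in dN (1.50 ± 0.29, adjusted p = 0.0032) and dPY (1.32 ± 0.29, adjusted p = 0.006) cells than in Puro cells, which were themselves lower than Hygro cells (-1.24 ± 0.29, adjusted p = 0.023). PFKM, the muscle-type subunit, had 7.88 and 15.5 FPKM in Y305A/dPY cells, 12 and 24.4 in Y305A cells, 7.59 and 10.2 in dPY cells, and 12.5 and 12.1 in dN cells. PFKM was at 10.8 and 10.4 FPKM in YAP 5SA cells, 17.8 and 23.5 in Puro cells, and 12.4 and 17.6 in Hygro cells. PFKM was lower in dPY cells than in Puro cells (-1.13 ± 0.37, adjusted p = 0.036). PFKP, the platelet-type subunit, had 167 and 140.0 FPKM in Y305A/dPY cells, 234 and 193 in Y305A cells, 174 and 124 in dPY cells, and 177 and 139 in dN cells. PFKP was at 117 and 74.6 FPKM in YAP 5SA cells, 53.7 and 123 in Puro cells, and 98 and 170.5 in Hygro cells. PFKP was higher in Y305A cells than in Puro cells (1.37 ± 0.43, adjusted p = 0.041). The PFKP libraries of Puro cells differed from each other by more than those of Y305A cells.

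Aldolase splits the phosphorylated hexose. ALDOA had 2168 and 1193 FPKM in Y305A/dPY cells, 1704 and 1041 in Y305A cells, 1518 and 956 in dPY cells, and 1545 and 839.5 in dN cells. ALDOA was at 273 and 250.3 FPKM in YAP 5SA cells, 213 and 306 in Puro cells, and 782 and 872 in Hygro cells. The 8 MRTFB libraries spanned 839.5 to 2168 FPKM and the 4 YAP 5SA and Puro libraries 213 to 306 FPKM, with Hygro cells between or within the MRTFB range. ALDOA was higher in all 4 MRTFB groups against Puro cells (log2 2.15 to 2.65, adjusted p 0.0055 to 0.0092) and in none against Hygro cells. ALDOC, a minor isoform here, had 1.42 and 1.36 FPKM in Y305A/dPY cells, 1.62 and 2.21 in Y305A cells, 2.58 and 1.79 in dPY cells, and 3.33 and 3.02 in dN cells. ALDOC was at 1.18 and 0.891 FPKM in YAP 5SA cells, 4.06 and 7.95 in Puro cells, and 1.08 and 2.27 in Hygro cells. ALDOC was higher in Puro than in Hygro cells (1.37 ± 0.31, adjusted p = 0.021) and lower in dPY, Y305A and Y305A/dPY cells than in Puro cells, at -1.49 ± 0.31, adjusted p = 0.0087 in Y305A/dPY cells. Against Hygro cells the ALDOC sign turned in dPY cells (0.28, adjusted p = 0.59) and Y305A cells (0.15, adjusted p = 0.9).

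The enzymes of the later steps, apart from PGK1 and ENO2, did not pass as higher against Hygro cells in any MRTFB group. TPI1, the triose phosphate isomerase, had 362 and 243 FPKM in Y305A/dPY cells, 452 and 379.7 in Y305A cells, 691 and 456 in dPY cells, and 744 and 496 in dN cells. TPI1 was at 198 and 223 FPKM in YAP 5SA cells, 118 and 231 in Puro cells, and 279 and 608 in Hygro cells. GAPDH, the dehydrogenase of the pathway, had 3895 and 2533 FPKM in Y305A/dPY cells, 4778 and 3509 in Y305A cells, 5226 and 3533 in dPY cells, and 6251 and 3577 in dN cells. GAPDH was at 1996 and 2287 FPKM in YAP 5SA cells, 1174 and 1622 in Puro cells, and 2410.2 and 4541 in Hygro cells. Both were higher in dN cells than in Puro cells (1.87 ± 0.48, adjusted p = 0.012 for TPI1, and 1.78 ± 0.57, adjusted p = 0.033 for GAPDH) and in dPY cells, while neither passed against Hygro cells in any MRTFB group. PGK1, which makes the first ATP of the pathway, had 267 and 189.7 FPKM in Y305A/dPY cells, 306 and 236 in Y305A cells, 522 in the 1 usable library of dPY cells, and 574 and 486 in dN cells. PGK1 was at 171 and 196 FPKM in YAP 5SA cells, 87.1 and 108 in Puro cells, and 195 and 248 in Hygro cells. Its dN libraries and the usable dPY library were above all others. PGK1 was higher in dN cells against Puro cells (2.43 ± 0.33, adjusted p = 0.00055) and against Hygro cells (1.26 ± 0.33, adjusted p = 0.023). Its log2 difference between Y305A and dN cells was -0.97 ± 0.33, adjusted p = 0.073.

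PGAM1, a phosphoglycerate mutase, had 199 and 128 FPKM in Y305A/dPY cells, 207 and 146 in Y305A cells, 246 and 143 in dPY cells, and 254 and 171 in dN cells. PGAM1 was at 117 and 131 FPKM in YAP 5SA cells, 53.7 and 69.1 in Puro cells, and 126 and 175 in Hygro cells. ENO1, the ubiquitous enolase, had 1544 and 1279 FPKM in Y305A/dPY cells, 2068 and 1894 in Y305A cells, 1975 and 1077 in dPY cells, and 2077 and 1071 in dN cells. ENO1 was at 482 and 479.5 FPKM in YAP 5SA cells, 295 and 489 in Puro cells, and 818 and 1568 in Hygro cells. Each was higher in all 4 MRTFB groups than in Puro cells, PGAM1 at log2 1.38 to 1.76 and ENO1 at 1.89 to 2.38, and in none against Hygro cells. ENO2, an enolase best known from neurons, had 1.03 and 2.44 FPKM in Y305A/dPY cells, 2.33 and 3.38 in Y305A cells, 11.4 and 9.29 in dPY cells, and 13.1 and 11.8 in dN cells. ENO2 was at 0.539 and 0.711 FPKM in YAP 5SA cells, 0.405 and 3.18 in Puro cells, and 0.35 and 0.621 in Hygro cells. All 4 libraries of dPY and dN cells were above the other 10. ENO2 was 9.09-fold higher in dN cells than in Hygro cells (3.18 ± 0.43, adjusted p = 0.00045) and 5.55-fold higher than in Puro cells (2.47 ± 0.43, adjusted p = 0.0018). It was lower in Y305A than in dN cells (-1.81 ± 0.43, adjusted p = 0.015) and in Y305A/dPY than in dPY cells (-2.10 ± 0.43, adjusted p = 0.0068).

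PKM, the pyruvate kinase, had 2121 and 1591 FPKM in Y305A/dPY cells, 2524 and 1678 in Y305A cells, 1052 and 812 in dPY cells, and 1275 and 835 in dN cells. PKM was at 433 and 421 FPKM in YAP 5SA cells, 247 and 326 in Puro cells, and 1158 and 1246 in Hygro cells. Its highest libraries were those of the forms without SRF binding, and its difference between Y305A and dN cells was 1.00 ± 0.41, adjusted p = 0.14. PKM was higher in all 4 MRTFB groups than in Puro cells (log2 1.70 to 2.85, adjusted p 0.0031 to 0.0095) and lower in Puro than in Hygro cells (-2.08 ± 0.41, adjusted p = 0.015). Against Hygro cells the PKM sign turned in dN cells (-0.22, adjusted p = 0.77) and dPY cells (-0.38, adjusted p = 0.58). In YAP 5SA cells PKM was lower than in Hygro cells (-1.49 ± 0.41, adjusted p = 0.049), and 0.59 (adjusted p = 0.38) against Puro cells. LDHA, which reduces pyruvate to lactate, had 975 and 512 FPKM in Y305A/dPY cells, 1025 and 574 in Y305A cells, 1198 and 619.8 in dPY cells, and 1092 and 556 in dN cells. LDHA was at 351 and 385 FPKM in YAP 5SA cells, 224 and 273 in Puro cells, and 437 and 665 in Hygro cells. LDHA was higher in dN, dPY and Y305A cells than in Puro cells, at 1.65 ± 0.52, adjusted p = 0.03 in dN cells, and passed in none against Hygro cells.

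**Figure D4:**
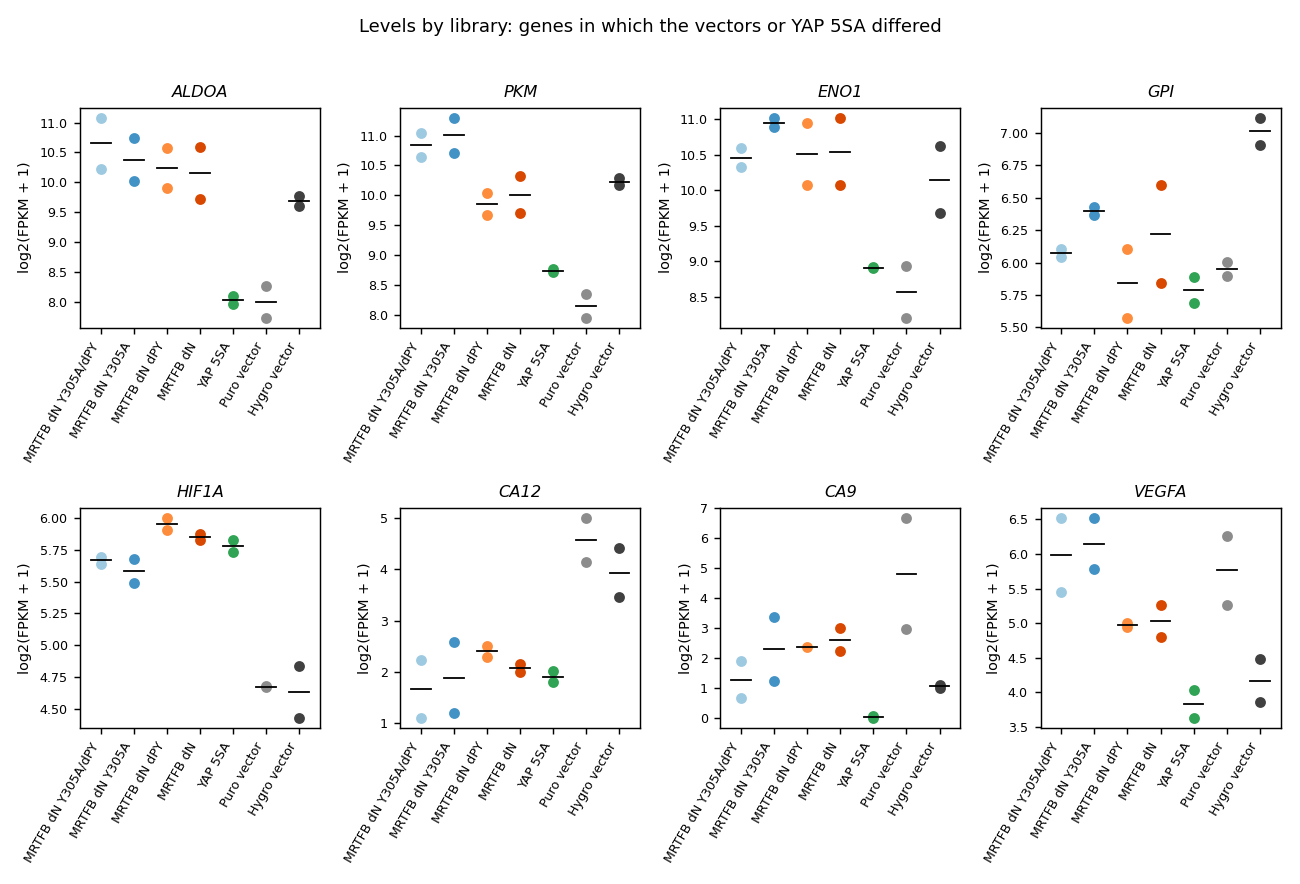
Levels by library of 8 members in which vectors or YAP 5SA differed. The y axis is log2(FPKM + 1), scaled separately for each gene; points are libraries and lines are group means. ALDOA, PKM and ENO1 sit low in YAP 5SA and Puro libraries; HIF1A sits lower in all 4 vector libraries than in all 10 others; CA9 spans 6.69 to 101 FPKM in the 2 Puro libraries.

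All 3 regulators of flux were lower without SRF binding in both comparisons. PFKFB3, a bifunctional enzyme that makes the allosteric activator of phosphofructokinase, had 3.31 and 3.75 FPKM in Y305A/dPY cells, 3.07 and 5.41 in Y305A cells, 42.1 and 39.8 in dPY cells, and 35.4 and 32 in dN cells. PFKFB3 was at 4.71 and 4.06 FPKM in YAP 5SA cells, 5.59 and 7.64 in Puro cells, and 5.68 and 4.79 in Hygro cells. The dPY and dN libraries were at 32 to 42.1 FPKM, and the other 10 at 7.64 FPKM or less. PFKFB3 was 6.78-fold lower in Y305A than in dN cells (-2.76 ± 0.26, adjusted p = 3e-05) and 9.27-fold lower in Y305A/dPY than in dPY cells (-3.21 ± 0.26, adjusted p = 1e-05). PFKFB3 was higher in dN cells against Puro (2.20 ± 0.26, adjusted p = 0.00015) and Hygro cells (2.48 ± 0.26, adjusted p = 6.8e-05). The calls against Puro cells and with loss of SRF binding remained in every refit that left out 1 library.

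PFKFB4, of the same family, had 2.96 and 3.55 FPKM in Y305A/dPY cells, 3.69 and 3.77 in Y305A cells, 12.9 and 7.49 in dPY cells, and 8.76 and 7.41 in dN cells. PFKFB4 was at 3.49 and 3.27 FPKM in YAP 5SA cells, 2.41 and 3.95 in Puro cells, and 3.98 and 3.39 in Hygro cells. PFKFB4 was lower in Y305A than in dN cells (-0.94 ± 0.27, adjusted p = 0.038) and in Y305A/dPY than in dPY cells (-1.36 ± 0.27, adjusted p = 0.0058). PDK1, a kinase that blocks entry of pyruvate into the mitochondrial cycle, had 0.932 and 1.24 FPKM in Y305A/dPY cells, 0.923 and 1.31 in Y305A cells, 7.29 and 4.47 in dPY cells, and 5.02 and 3.74 in dN cells. PDK1 was at 1.07 and 1.46 FPKM in YAP 5SA cells, 5.99 and 3.78 in Puro cells, and 1.06 and 0.952 in Hygro cells. Here the Puro libraries overlapped those of dPY and dN cells, and the other 8 were at 1.46 FPKM or less. PDK1 was lower in Y305A than in dN cells (-1.34 ± 0.27, adjusted p = 0.0064) and in Y305A/dPY than in dPY cells (-1.69 ± 0.27, adjusted p = 0.0016). It was higher in dN cells against Hygro cells (1.41 ± 0.27, adjusted p = 0.0044) but not against Puro cells (-0.11 ± 0.27, adjusted p = 0.77), and higher in Puro than in Hygro cells (1.53 ± 0.27, adjusted p = 0.011). In Y305A and Y305A/dPY cells it was lower than in Puro cells (-1.46 ± 0.27, adjusted p = 0.0074, and -1.47 ± 0.27, adjusted p = 0.0061), and at 0.07 and 0.05 against Hygro cells.

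**Figure D5:**
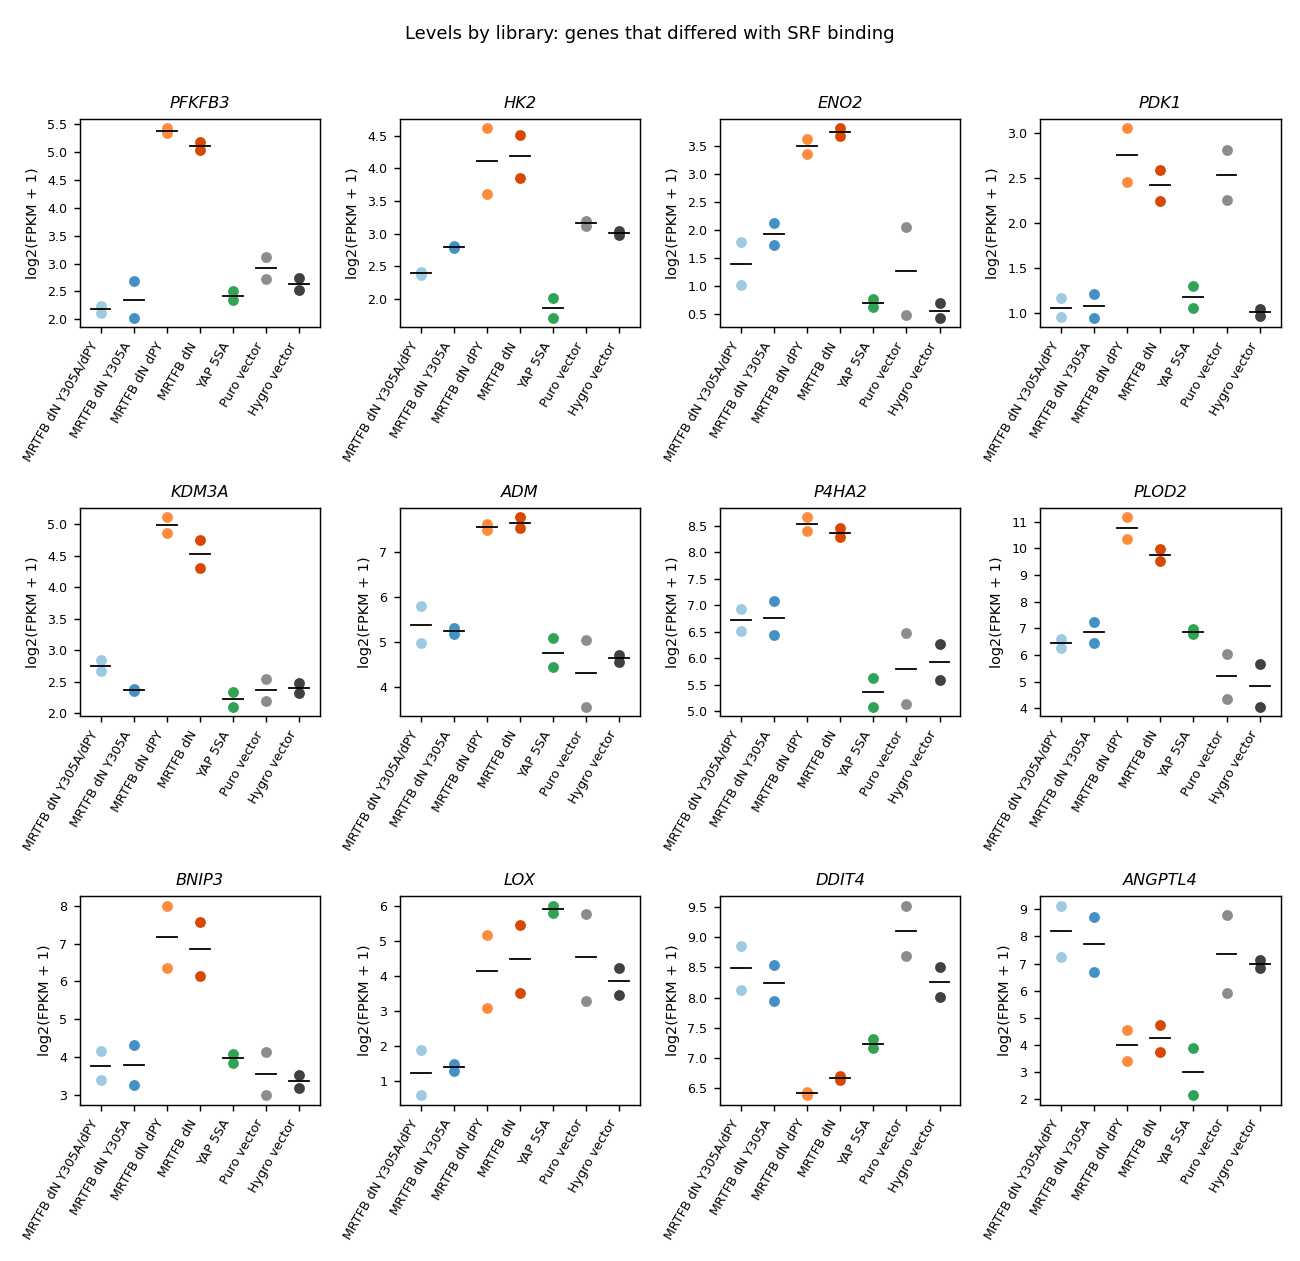
Levels by library of 12 members that differed with SRF binding. The y axis is log2(FPKM + 1), scaled separately for each gene; points are libraries and lines are group means. In PFKFB3, HK2, ENO2, KDM3A, ADM, P4HA2, PLOD2 and BNIP3 the 4 libraries of MRTFB dN dPY and MRTFB dN are above the other 10; in DDIT4 they are below them.

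Of the HIF regulators, HIF1A, the oxygen-sensitive subunit, had 50.7 and 48.8 FPKM in Y305A/dPY cells, 43.8 and 50.2 in Y305A cells, 58.9 and 63 in dPY cells, and 55.7 and 57.6 in dN cells. HIF1A was at 52.1 and 55.8 FPKM in YAP 5SA cells, 24.5 and 24.6 in Puro cells, and 20.6 and 27.6 in Hygro cells. Its 10 libraries with a construct, at 43.8 to 63 FPKM, were all above the 4 vector libraries, at 20.6 to 27.6 FPKM. HIF1A was higher against Puro cells in dN (1.18 ± 0.22, adjusted p = 0.0029), dPY (1.28 ± 0.22, adjusted p = 0.0019), Y305A (0.91 ± 0.22, adjusted p = 0.018) and Y305A/dPY cells (0.99 ± 0.22, adjusted p = 0.012), and against Hygro cells in YAP 5SA cells (1.15 ± 0.22, adjusted p = 0.013). Against Hygro cells Y305A cells missed the threshold (0.95 ± 0.22, adjusted p = 0.054). Its differences with loss of SRF binding were -0.27 ± 0.22, adjusted p = 0.5 and -0.29 ± 0.22, adjusted p = 0.46, so neither passed.

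EGLN1, the main HIF prolyl hydroxylase, had 9.66 and 5.35 FPKM in Y305A/dPY cells, 8.58 and 4.47 in Y305A cells, 11.6 and 7.77 in dPY cells, and 9.6 and 6.54 in dN cells. EGLN1 was at 6.04 and 6.62 FPKM in YAP 5SA cells, 4.4 and 3.84 in Puro cells, and 3.69 and 3.25 in Hygro cells. Every replicate 1 of the MRTFB groups was above its replicate 2, and EGLN1 was higher in dPY cells than in Puro (1.04 ± 0.34, adjusted p = 0.035) and Hygro cells (1.24 ± 0.34, adjusted p = 0.026). EGLN3, a hydroxylase that HIF induces, had 0.206 and 0.0681 FPKM in Y305A/dPY cells, 0.158 and 0.312 in Y305A cells, 1.18 and 1.42 in dPY cells, and 1.77 and 1.59 in dN cells. EGLN3 was at 0.594 and 0.386 FPKM in YAP 5SA cells, 0.298 and 0.756 in Puro cells, and 0.15 and 0.189 in Hygro cells. Its dPY and dN libraries, though low, were above all others and were the ones that passed it through the filter on low values, which alone sets the direction here. It was lower in Y305A than in dN cells (-1.12 ± 0.21, adjusted p = 0.0036) and in Y305A/dPY than in dPY cells (-1.02 ± 0.21, adjusted p = 0.0063). KDM3A, a histone demethylase, had 5.34 and 6.16 FPKM in Y305A/dPY cells, 4.14 and 4.22 in Y305A cells, 28 and 33.6 in dPY cells, and 18.7 and 25.8 in dN cells. KDM3A was at 3.31 and 4.07 FPKM in YAP 5SA cells, 4.85 and 3.6 in Puro cells, and 4.58 and 4.02 in Hygro cells. The dPY and dN libraries were at 18.7 to 33.6 FPKM and the other 10 at 3.31 to 6.16 FPKM. KDM3A was 4.43-fold lower in Y305A than in dN cells (-2.15 ± 0.24, adjusted p = 0.00011) and 4.7-fold lower in Y305A/dPY than in dPY cells (-2.23 ± 0.24, adjusted p = 8.1e-05). KDM3A and PFKFB3 were the members whose loss-of-SRF-binding calls remained without any 1 library in both comparisons.

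The secreted factors moved in different directions. ADM, the vasodilator peptide adrenomedullin, had 30.6 and 54.5 FPKM in Y305A/dPY cells, 35.3 and 38.7 in Y305A cells, 195 and 177 in dPY cells, and 183 and 218 in dN cells. ADM was at 32.9 and 20.7 FPKM in YAP 5SA cells, 10.9 and 32.1 in Puro cells, and 25.3 and 22.7 in Hygro cells. The dPY and dN libraries were at 177 to 218 FPKM, above 54.5 FPKM in the highest of the other 10. ADM was 5.29-fold lower in Y305A than in dN cells (-2.40 ± 0.44, adjusted p = 0.0035) and 4.45-fold lower in Y305A/dPY than in dPY cells (-2.15 ± 0.44, adjusted p = 0.0067). It was 8.04-fold higher in dN than in Hygro cells (3.01 ± 0.44, adjusted p = 0.0008). VEGFA, the endothelial growth factor, had 42.5 and 90.8 FPKM in Y305A/dPY cells, 53.8 and 91 in Y305A cells, 29.8 and 31 in dPY cells, and 26.7 and 37.3 in dN cells. VEGFA was at 15.3 and 11.4 FPKM in YAP 5SA cells, 37.4 and 75.7 in Puro cells, and 21.3 and 13.5 in Hygro cells. VEGFA was higher in Puro than in Hygro cells (1.60 ± 0.45, adjusted p = 0.04) and in Y305A than in Hygro cells (1.98 ± 0.45, adjusted p = 0.044). Its differences with loss of SRF binding, 1.13 ± 0.45, adjusted p = 0.12, and 1.01 ± 0.45, adjusted p = 0.16, did not pass.

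ANGPTL4, an inhibitor of lipoprotein lipase, had 151 and 561 FPKM in Y305A/dPY cells, 103 and 423 in Y305A cells, 9.73 and 22.3 in dPY cells, and 12.5 and 25.9 in dN cells. ANGPTL4 was at 13.8 and 3.43 FPKM in YAP 5SA cells, 59.1 and 437 in Puro cells, and 114 and 138 in Hygro cells. Replicates differed several-fold within Y305A/dPY, Y305A, YAP 5SA and Puro cells, but the 6 libraries of dPY, dN and YAP 5SA cells, at 3.43 to 25.9 FPKM, were below the other 8, at 59.1 to 561 FPKM. ANGPTL4 was 11-fold higher in Y305A than in dN cells (3.46 ± 1.01, adjusted p = 0.039) and 18.5-fold higher in Y305A/dPY than in dPY cells (4.21 ± 1.01, adjusted p = 0.016). It was 15.6-fold lower in YAP 5SA than in Hygro cells (-3.97 ± 1.01, adjusted p = 0.038). CD14, one of the leukocyte markers, had 33 and 123 FPKM in Y305A/dPY cells, 30.6 and 149 in Y305A cells, 2.61 and 3.73 in dPY cells, and 1.31 and 4.01 in dN cells. CD14 was at 1.57 and 1.61 FPKM in YAP 5SA cells, 27.9 and 139 in Puro cells, and 32.2 and 9.17 in Hygro cells. It was thus also low in dPY, dN and YAP 5SA cells. Of the 6 leukocyte markers, 2 or 3 were at 1 FPKM or more in a library. Their summed level was 666 and 695 FPKM in Y305A/dPY cells, 806 and 808 in Y305A cells, 346 and 334 in dPY cells, 449 and 388 in dN cells, 297 and 315 in YAP 5SA cells, 439.6 and 755 in Puro cells, and 551 and 803 in Hygro cells. Most of that sum is 1 locus that merges CD68 with EIF4A1 and other genes, and PTPRC, which defines leukocytes, was at 0.0316 FPKM or less in all libraries.

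The carbonic anhydrases of the cell surface, which handle acid from metabolism, differed in their pattern. CA9 had 0.566 and 2.69 FPKM in Y305A/dPY cells, 1.36 and 9.18 in Y305A cells, 4.16 in the 1 usable library of dPY cells, and 3.63 and 7.03 in dN cells. CA9 was at 0 and 0.029 FPKM in YAP 5SA cells, 6.69 and 101 in Puro cells, and 0.986 and 1.15 in Hygro cells. The Puro replicates differed by more FPKM than those of any other group. The higher level in Puro than in Hygro cells (3.76 ± 1.04, adjusted p = 0.041) and the lower level in Y305A/dPY than in Puro cells (-3.54 ± 1.04, adjusted p = 0.034) rest on these libraries. Against Hygro cells the difference of Y305A/dPY cells was 0.22 (adjusted p = 0.97). CA12 had 1.16 and 3.69 FPKM in Y305A/dPY cells, 1.29 and 5.01 in Y305A cells, 3.89 and 4.72 in dPY cells, and 3.02 and 3.43 in dN cells. CA12 was at 3.05 and 2.48 FPKM in YAP 5SA cells, 16.7 and 31.1 in Puro cells, and 20.3 and 10.0 in Hygro cells. All 10 libraries with a construct, at 1.16 to 5.01 FPKM, were below the 4 vector libraries, at 10.0 to 31.1 FPKM. CA12 was lower in all 4 MRTFB groups than in Puro cells (log2 -2.17 to -2.91) and lower in dN (-1.86 ± 0.51, adjusted p = 0.027), Y305A/dPY (-2.27 ± 0.51, adjusted p = 0.045) and YAP 5SA cells (-2.03 ± 0.51, adjusted p = 0.036) than in Hygro cells.

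Of the collagen-modifying enzymes, 3 of 4 were lower without SRF binding in both comparisons. P4HA1, a catalytic subunit of collagen prolyl hydroxylase, passed in none of the 10 comparisons. It had 85.2 and 47.7 FPKM in Y305A/dPY cells, 81.4 and 40.6 in Y305A cells, 125 and 78.4 in dPY cells, and 94.5 and 74.9 in dN cells. P4HA1 was at 30.3 and 32.5 FPKM in YAP 5SA cells, 35 and 142 in Puro cells, and 46.7 and 39.8 in Hygro cells. P4HA2, the second such subunit, had 121 and 90.6 FPKM in Y305A/dPY cells, 134 and 85.9 in Y305A cells, 404 and 338 in dPY cells, and 349.7 and 309.8 in dN cells. P4HA2 was at 48.4 and 33 FPKM in YAP 5SA cells, 34.2 and 87.5 in Puro cells, and 47.1 and 76.3 in Hygro cells. The dPY and dN libraries, at 309.8 to 404 FPKM, were above all others, and P4HA2 was lower in Y305A than in dN cells (-1.61 ± 0.45, adjusted p = 0.03) and in Y305A/dPY than in dPY cells (-1.81 ± 0.45, adjusted p = 0.017). It was 5.92-fold higher in dN than in Puro cells (2.57 ± 0.45, adjusted p = 0.0017) and 5.41-fold higher than in Hygro cells (2.44 ± 0.45, adjusted p = 0.003).

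PLOD2, a lysyl hydroxylase of collagen, whose promoter holds both HIF cores, had the largest fold change of the set in dN and dPY cells against either vector. It had 97.4 and 76.6 FPKM in Y305A/dPY cells, 152 and 87.7 in Y305A cells, 2312 and 1313 in dPY cells, and 1013 and 727 in dN cells. PLOD2 was at 124 and 110.1 FPKM in YAP 5SA cells, 19.7 and 64.8 in Puro cells, and 15.8 and 49.2 in Hygro cells. PLOD2 was 60-fold higher in dPY than in Hygro cells (5.91 ± 0.61, adjusted p = 7.2e-05), 29.6-fold higher in dN than in Hygro cells (4.89 ± 0.61, adjusted p = 0.00026), and 47.2-fold and 23.3-fold higher than in Puro cells. It was 7.38-fold lower in Y305A than in dN cells (-2.88 ± 0.61, adjusted p = 0.008) and 19.9-fold lower in Y305A/dPY than in dPY cells (-4.32 ± 0.61, adjusted p = 0.00065). The Y305A/dPY, Y305A and YAP 5SA libraries, at 76.6 to 152 FPKM, were all above the 4 vector libraries, at 15.8 to 64.8 FPKM, but the difference of Y305A from Puro cells did not pass (1.66 ± 0.61, adjusted p = 0.069). LOX, which cross-links collagen, had 0.5 and 2.7 FPKM in Y305A/dPY cells, 1.45 and 1.79 in Y305A cells, 7.43 and 35.5 in dPY cells, and 10.5 and 43 in dN cells. LOX was at 63.9 and 55.4 FPKM in YAP 5SA cells, 8.77 and 54.4 in Puro cells, and 10.1 and 17.8 in Hygro cells. LOX was highest in both YAP 5SA libraries and lowest in the 4 libraries of forms without SRF binding. LOX was lower in Y305A than in dN cells (-3.11 ± 0.90, adjusted p = 0.038) and in Y305A/dPY than in dPY cells (-2.90 ± 0.90, adjusted p = 0.049). LOX was lower in both than in Puro cells (-3.15 ± 0.90, adjusted p = 0.029, and -3.30 ± 0.90, adjusted p = 0.024). The difference of YAP 5SA from Hygro cells was 2.06 ± 0.90, adjusted p = 0.2.

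The mitophagy receptors were higher with SRF-binding MRTFB. BNIP3 had 16.9 and 9.43 FPKM in Y305A/dPY cells, 18.8 and 8.66 in Y305A cells, 256 and 80.6 in dPY cells, and 189.6 and 70.3 in dN cells. BNIP3 was at 13.4 and 15.9 FPKM in YAP 5SA cells, 6.94 and 16.6 in Puro cells, and 8.13 and 10.6 in Hygro cells. BNIP3 was 8.42-fold lower in Y305A than in dN cells (-3.07 ± 0.64, adjusted p = 0.0068) and 10.6-fold lower in Y305A/dPY than in dPY cells (-3.41 ± 0.64, adjusted p = 0.0037). It was 9.87-fold and 11.3-fold higher in dN than in Puro and Hygro cells. BNIP3L had 8.48 and 5.13 FPKM in Y305A/dPY cells, 8.52 and 4.13 in Y305A cells, 24.7 in the 1 usable library of dPY cells, and 24.6 and 18.8 in dN cells. BNIP3L was at 6.9 and 10.6 FPKM in YAP 5SA cells, 2.59 and 4.74 in Puro cells, and 5.48 and 3.83 in Hygro cells. It was lower in Y305A than in dN cells (-1.69 ± 0.39, adjusted p = 0.015) and, with 1 usable dPY library, lower in Y305A/dPY than in dPY cells (-1.76 ± 0.48, adjusted p = 0.031). NDRG1, a gene induced by stress and hypoxia, had 48.4 and 21.1 FPKM in Y305A/dPY cells, 38.4 and 14.3 in Y305A cells, 125 in the 1 usable library of dPY cells, and 173 and 164 in dN cells. NDRG1 was at 80.5 and 120.0 FPKM in YAP 5SA cells, 7.09 and 39.2 in Puro cells, and 12.1 and 30.6 in Hygro cells. NDRG1 was lower in Y305A than in dN cells (-2.79 ± 0.76, adjusted p = 0.032) and higher in dN than in Puro (3.23 ± 0.76, adjusted p = 0.0098) and Hygro cells (3.06 ± 0.76, adjusted p = 0.02). With 1 usable dPY library, its difference between Y305A/dPY and dPY cells was -1.93 ± 0.93, adjusted p = 0.21. The YAP 5SA libraries, at 80.5 and 120.0 FPKM, were above those of both vectors, and that difference was 2.29 ± 0.76, adjusted p = 0.099 against Hygro cells.

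DDIT4, an inhibitor of the growth kinase mTOR, went the other way. It had 278 and 463 FPKM in Y305A/dPY cells, 245 and 370.2 in Y305A cells, 86.3 and 82.7 in dPY cells, and 98.9 and 103 in dN cells. DDIT4 was at 159 and 142 FPKM in YAP 5SA cells, 413 and 734 in Puro cells, and 361 and 257 in Hygro cells. The dPY and dN libraries were the lowest of all, followed by those of YAP 5SA cells. DDIT4 was 2.96-fold higher in Y305A than in dN cells (1.57 ± 0.38, adjusted p = 0.017) and 4.21-fold higher in Y305A/dPY than in dPY cells (2.07 ± 0.38, adjusted p = 0.0036). In dN cells it was lower than in Puro (-2.43 ± 0.38, adjusted p = 0.001) and Hygro cells (-1.58 ± 0.38, adjusted p = 0.015).

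Genes of the same pathways outside the set were counted from lists chosen by function, and are to be read against the 10.6% lower and 6.12% higher of all loci in Y305A against dN cells and 10.7% and 6.76% in Y305A/dPY against dPY cells. Some listed genes lie in loci that the table merges with other genes, 4 of 10 in the HIF pathway list, 2 of 24 in the hypoxia-induced list, and 1 each in the pyruvate, glycolysis and oxidative phosphorylation lists. Of 8 tested other HIF pathway genes, 1 was lower and 0 were higher in Y305A than in dN cells (1 at an unadjusted p under 0.05 in limma), and 1 was lower and 1 higher in Y305A/dPY than in dPY cells. The higher one was EPAS1, another HIF alpha subunit (0.80 ± 0.23, adjusted p = 0.036). The lower one, CITED2, a competitor of HIF for its coactivators, had 3.21 and 3.08 FPKM in Y305A/dPY cells, 3 and 2.74 in Y305A cells, 24.6 and 16.5 in dPY cells, and 34.1 and 19.9 in dN cells. CITED2 was at 56.6 and 77.8 FPKM in YAP 5SA cells, 2.34 and 4.05 in Puro cells, and 5.71 and 6.16 in Hygro cells. CITED2 was lower in Y305A/dPY than in dPY cells too (-2.35 ± 0.32, adjusted p = 0.00043) and higher in YAP 5SA than in Hygro cells (3.28 ± 0.32, adjusted p = 0.00039). Of 22 tested other hypoxia-induced genes, 6 were lower and 1 was higher in Y305A than in dN cells, and 5 and 1 in Y305A/dPY than in dPY cells, with list medians of -0.49 and -0.50. GBE1, the glycogen branching enzyme, had 19.9 and 11 FPKM in Y305A/dPY cells, 16.7 and 11.6 in Y305A cells, 224 and 121 in dPY cells, and 183 and 92.9 in dN cells. GBE1 was at 8.84 and 9.58 FPKM in YAP 5SA cells, 13 and 6.11 in Puro cells, and 8.07 and 11.4 in Hygro cells. It was lower in Y305A than in dN cells (-3.13 ± 0.46, adjusted p = 0.00078), as were TMEM45A (-4.72 ± 0.33, adjusted p = 3.8e-06), STC2 (-3.22 ± 0.37, adjusted p = 0.00015) and IGFBP3 (-2.76 ± 0.36, adjusted p = 0.00056), while BHLHE40, a transcriptional repressor, was higher (2.02 ± 0.24, adjusted p = 0.00019).

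Of 24 tested genes of pyruvate entry and the tricarboxylic acid cycle, 4 were lower and 1 was higher in Y305A than in dN cells, and again 4 and 1 in Y305A/dPY than in dPY cells. They included PDK4, a kinase of pyruvate dehydrogenase like PDK1, which was lower (-3.57 ± 0.36, adjusted p = 0.00011). The higher one is a locus that merges PDK2 with the integrin gene ITGA3, and its level cannot be credited to either. Of 12 tested other genes of glycolysis and lactate, 3 were lower and 2 higher in Y305A than in dN cells. Of 7 pentose phosphate genes and 13 oxidative phosphorylation genes, 0 passed in either comparison with limma, and 1 pentose phosphate gene had an unadjusted p under 0.05, in Y305A against dN cells.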

How the data were processed

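RNA of 14 MCF-10A libraries (7 groups of 2) was made into stranded, paired-end mRNA libraries, per the labels' protocols. The values are FPKM per gene locus in 1 table deposited by the authors; Bowtie, TopHat, Cufflinks, Cuffnorm and the hg19 genome are named in the submitters' processing notes, with no versions or settings. Counts and absolute depth are not given in the sources used here. Relative depth was read as the most frequent ratio of Hygro replicate 1 to each library, over loci detected but under 0.5 FPKM in both. Each member was taken at its locus of highest mean FPKM; 0 members lay in a locus merged with other genes. Empty stretches of MRTFB dN dPY replicate 1 (5242 loci, 1554 of them named and expressed) were set to missing.

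Levels were tested as log2(FPKM + 1) with limma 3.58.1 in R 4.3.3 (1 linear model over the 7 groups, empirical Bayes with trend, 7 residual degrees of freedom, 6 where 1 library is missing; two-sided), with p-values adjusted by Benjamini-Hochberg over the 13137 named loci at 1 FPKM or more in at least 2 libraries, and a threshold of 0.05. Fold changes are on the log2(FPKM + 1) scale, which understates the change of low genes, and are given ± SE. A dPY group with 1 usable library is assumed to vary like the other groups. Tables were handled in Python 3.11.15 with pandas 2.3.3 and numpy 2.4.6, and the fit was tested on simulated data. Promoter sequences are RefSeq's (GRCh38.p14), matched by symbol; the genome build of the table differs, so annotation served for names and chromosomes only. Members called in at least 1 of 10 comparisons, and the first of each role, are given with every library. The members and all lists were chosen with earlier results of these data known. Alternatives were a pseudocount of 0.1, no filter, median-of-ratios scaling, a replicate block, the compared groups only, the other vector, the empty part's zeros kept, and each library left out; a block within the MRTFB groups and counts without EGLN3 were added after seeing the data.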

Additional observations from a re-analysis of the deposited data

How the results depend on the processing

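Of the alternatives to the single limma fit, a pseudocount of 0.1 and median-of-ratios scaling moved no count of called members by more than 1.5 times, except that with the pseudocount MRTFB dN Y305A against Hygro vector had 2 calls (1) and MRTFB dN Y305A/dPY 1 (2). Fitting the compared groups alone left 1 call for YAP 5SA against Hygro vector (6 in all), 11 for MRTFB dN (27) and 8 for MRTFB dN dPY (29) against Puro vector, and 0 for MRTFB dN Y305A, MRTFB dN Y305A/dPY and the vectors against each other (12, 11 and 10; 14, 13 and 10 at an unadjusted p under 0.05 in limma). Of all 13137 loci, that setting called 3 higher and 4 lower in MRTFB dN Y305A, 27 and 7 in MRTFB dN Y305A/dPY, and 0 and 0 between the vectors. It leaves fewer libraries to estimate the spread. With the other vector as control, MRTFB dN had 17 calls, MRTFB dN dPY 16, MRTFB dN Y305A 1 and MRTFB dN Y305A/dPY 2. Without the filter on low values, 9 calls stood for MRTFB dN Y305A against MRTFB dN (16), 7 for MRTFB dN Y305A/dPY against Puro vector, 4 for Puro against Hygro vector, and 1, higher, for YAP 5SA against Hygro vector, where most calls had been lower. With the zeros of the empty part kept, YAP 5SA against Hygro vector had 2 calls and Puro against Hygro vector 4. PGK1 (-2.10) and NDRG1 (-0.68) in MRTFB dN dPY against Puro vector and BNIP3L (0.59) in MRTFB dN Y305A/dPY against MRTFB dN dPY changed sign. Against the other vector the sign turned for PKM in YAP 5SA (0.59), MRTFB dN (-0.22) and MRTFB dN dPY cells (-0.38), ALDOC in MRTFB dN dPY (0.28) and MRTFB dN Y305A cells (0.15), PDK1 in MRTFB dN Y305A (0.07) and MRTFB dN Y305A/dPY cells (0.05), and CA9 in MRTFB dN Y305A/dPY cells (0.22). The cause of these changes was not tested.

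Leaving out 1 library at a time gave 0 to 3 calls for YAP 5SA against Hygro vector, 13 to 25 for MRTFB dN, 13 to 26 for MRTFB dN dPY, 0 to 15 for MRTFB dN Y305A and 1 to 13 for MRTFB dN Y305A/dPY against Puro vector. It gave 5 to 10 for MRTFB dN Y305A against MRTFB dN, 10 to 12 for MRTFB dN Y305A/dPY against MRTFB dN dPY, and 1 to 7 for Puro against Hygro vector. Among the members, lower calls outnumbered higher ones in MRTFB dN Y305A and MRTFB dN Y305A/dPY against Puro vector without Puro replicate 1. Higher ones outnumbered lower ones in YAP 5SA and Puro against Hygro vector without Hygro replicate 2. The same held in Puro against Hygro vector without Puro replicate 1. Over all loci the more frequent direction did not change in these refits.

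The replicate numbers are not stated to pair libraries. Deviations from the group mean correlated at 0.32 to 0.64 across genes between same-numbered libraries of the 4 MRTFB groups and at -0.15 to 0.24 in every other pair of groups. With a replicate block over all groups, 16 members were called in MRTFB dN Y305A against MRTFB dN and 15 in MRTFB dN Y305A/dPY against MRTFB dN dPY, and the only count that moved by over 1.5 times was MRTFB dN Y305A/dPY against Hygro vector (4 against 2). A replicate block within the MRTFB groups, added after seeing the data, gave 21 calls in MRTFB dN Y305A and 18 in MRTFB dN Y305A/dPY against Puro vector, and 11 in YAP 5SA against Hygro vector. Over all settings run, calls against Hygro vector ranged from 11 to 22 in MRTFB dN, 12 to 23 in MRTFB dN dPY, 0 to 5 in MRTFB dN Y305A and 0 to 6 in MRTFB dN Y305A/dPY, and YAP 5SA against Puro vector ranged from 0 to 14. With 2 libraries a group and unknown absolute depth, differences of members near 1 FPKM are the least certain.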
